A study of Homo sapiens with 10 samples.

Results

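The genes of fatty acid and triglyceride synthesis described here are FASN, ACACA, ACACB, ACLY, SCD, ELOVL6, FADS1, FADS2, ACSS2 and DGAT2. They were found by the gene name that the scanner files give each probe, and they make up 10 of the 28090 named genes on the array, with 17 of its 41000 probes. All 10 genes and all 17 probes were well above background in at least 1 group and entered the analysis, as did 19704 genes in all. Of the 10 genes, 9 were taken for their place in the pathway, with earlier results of these data known. DGAT2 was chosen by its measured values on these arrays, the distance of its change with both drugs from the sum of its changes with either drug, so they are given as a description, with no test.

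Fatty acid synthesis starts from cytosolic acetyl-CoA, which ACLY makes from citrate and ACSS2 makes from acetate. The acetyl-CoA carboxylases ACACA and ACACB turn it into malonyl-CoA, fatty acid synthase, FASN, builds palmitate from malonyl-CoA, and elongases and desaturases such as ELOVL6, SCD, FADS1 and FADS2 lengthen the chains and set double bonds in them. DGAT2 joins a fatty acid to diacylglycerol in the last step of triglyceride synthesis. Many of these genes are known targets of the sterol regulatory element-binding proteins, and the pathway is often highly active in prostate cancer cells.

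RNA came from PC-3, a line of human prostate cancer cells first grown from a bone metastasis, and was measured on 10 single-colour Agilent arrays, with 2 arrays labelled as biological replicates in each of 5 groups. The groups were cells at 0 h, before any addition, and cells kept for 24 h with DMSO, with 60 µM luteolin, with 60 µM gefitinib or with both drugs at these concentrations. Luteolin is a plant flavone, gefitinib is an inhibitor of the EGF receptor kinase, and both were dissolved in DMSO, so the DMSO arrays are the vehicle control and the 0 h arrays carry no vehicle. The cells are 1 line at 1 concentration of each drug and 1 time after addition, and the sources used here do not say whether replicates were separate cultures, so p-values measure the spread between these arrays. Fewer cells and less RNA per cell cannot be told apart in such bulk samples.

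For the 6 drug-treated arrays, the treatment in the name of the scanner file is not the one of the sample label. Arrays labelled luteolin carry gefitinib in the file name, those labelled gefitinib carry the combination, and those labelled with both drugs carry luteolin. Groups follow the labels throughout, a drug name below means the arrays so labelled, and the values with the treatments of the file names are given where a call changes. Every array was scaled to its 75th percentile, which was 651 and 628 units on the gefitinib arrays and 865 and 540 on the luteolin+gefitinib arrays, and lay between 1041 and 1402 on the other 6, and the part of this difference in the results was not tested. Of 5 epithelial markers, 5 were well above background on all 10 arrays, KRT8 and KRT18 among them. Markers of other cells were well above background on all arrays for 0 of 5 fibroblast, 2 of 4 blood cell, 1 of 3 endothelial, 1 of 4 adipocyte and 0 of 3 liver genes.

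Levels below are log2 signals minus the array's 75th percentile, and they can be compared between arrays for 1 gene but not between genes. A gene with several probes is represented by its brightest probe. A gene is said to have risen or fallen where limma gave a p under 0.05 after Benjamini-Hochberg adjustment over all probes and the difference was at least 1 on the log2 scale, that is, 2-fold.

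Against DMSO, SCD rose with 2 of the 3 treatments, and FADS1, FADS2 and ACSS2 rose with 1 each. With gefitinib, SCD, FADS1 and FADS2 rose, 3 of the 9 tested genes, where 15.6% of all genes tested rose, and 0 of the 9 fell, where 14.3% of all genes fell. With luteolin, ACSS2 alone rose, 1 of 9 against 7.22% of all genes, and 0 of 9 fell, against 6.17%. With both drugs SCD rose, 1 of 9 against 12.1%, and ELOVL6 fell, 1 of 9 against 7.7%. The median log2 difference of the 9 genes was 0.51 with luteolin, 0.78 with gefitinib and 0.04 with both drugs, and that of all genes was 0.08, 0.22 and 0.16. The 2 arrays of a group lay apart from both DMSO arrays for 8 of 9 genes with luteolin, 8 of 9 with gefitinib and 4 of 9 with both drugs, where 73.8%, 82.1% and 75.3% of all genes did so. Of all genes called with gefitinib 52.3% rose, a share that was 66.2% with normexp background correction and 40.4% with quantile normalization, and with both drugs the shares were 61.1%, 71.1% and 45.8%.

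**Figure D1:**
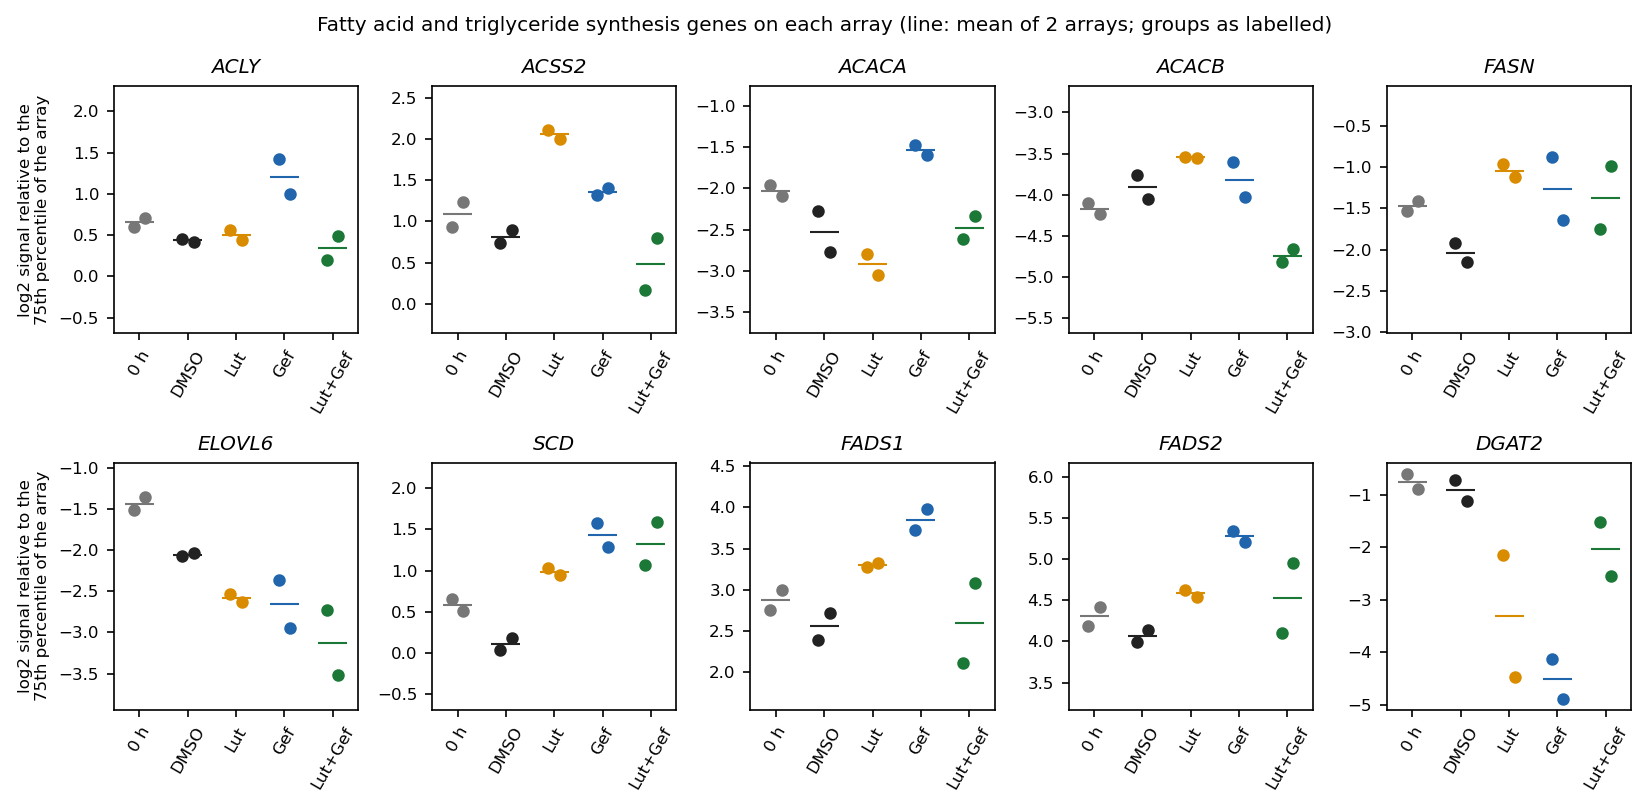
Level of each of the 10 genes on each array, as log2 signal minus the array's 75th percentile, in the 5 labelled groups. Points are arrays, short lines are means of 2 arrays, and every panel has its own vertical range of at least 3 log2 units. FADS1 and FADS2 are highest on both gefitinib arrays, ACSS2 is highest on both luteolin arrays, and DGAT2 is below its DMSO arrays on all 6 drug-treated arrays.

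Of the acetyl-CoA suppliers, ACSS2 rose with luteolin, by its brighter probe, and ACLY passed both thresholds with none of the treatments. ACSS2, acetyl-CoA synthetase, stood at 0.94 and 1.23 at 0 h, 0.74 and 0.89 with DMSO, 2.11 and 2.0 with luteolin, 1.32 and 1.40 with gefitinib, and 0.17 and 0.80 with both drugs. Both luteolin arrays lay above all others, and the rise against DMSO was 1.24 ± 0.22 on the log2 scale (SE, n = 2 arrays in each group, adjusted p = 0.00584 from limma). Without DMSO replicate 1 the difference was 1.16 at an adjusted p of 0.0509, and as the median of its probes it was 0.89 at 0.0109, so neither passed both thresholds. The dimmer ACSS2 probe, at chr20:32934388-32934447 of hg18, gave 0.54 with luteolin and 1.12 with gefitinib (adjusted p = 0.049 and 0.00162), the reverse order of the brighter probe at chr20:32979004-32979062, which gave 1.24 and 0.55. Over the 10 arrays the probes correlated at r = 0.42.

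ACLY, ATP citrate lyase, was at 0.60 and 0.71 at 0 h, 0.45 and 0.42 with DMSO, 0.56 and 0.44 with luteolin, 1.42 and 1.00 with gefitinib, and 0.20 and 0.49 with both drugs. Both gefitinib arrays were the highest of the 10, and the difference from DMSO of 0.77 ± 0.19 (adjusted p = 0.01) passed the p threshold but not 2-fold. The differences with luteolin and with both drugs were 0.07 and -0.09, with 95% intervals from -0.37 to 0.50 and from -0.52 to 0.34.

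The carboxylase and synthase genes gave differences from DMSO below 2-fold, though some alternatives took them past it. ACACA, the cytosolic acetyl-CoA carboxylase, was at -1.96 and -2.09 at 0 h, -2.27 and -2.78 with DMSO, -2.79 and -3.05 with luteolin, -1.47 and -1.59 with gefitinib, and -2.61 and -2.34 with both drugs. The gefitinib arrays were again the highest, by 0.99 ± 0.21 over DMSO (adjusted p = 0.00544), a 1.99-fold difference. It passed both thresholds with quantile normalization, at 1.02 (adjusted p = 0.00403), and without DMSO replicate 1, at 1.25 (adjusted p = 0.0113). Its other probe gave 0.59 with gefitinib (adjusted p = 0.0394) and correlated with the first at r = 0.63. ACACB, the carboxylase isoform of the mitochondrial surface, was dim, above background on 9 arrays, and stood at -4.10 and -4.23 at 0 h, -3.76 and -4.06 with DMSO, -3.54 and -3.55 with luteolin, -3.60 and -4.03 with gefitinib, and -4.82 and -4.66 with both drugs. The arrays with both drugs were below all others, and differed from DMSO by -0.83 on the log2 scale (adjusted p = 0.012). With quantile normalization that ACACB difference was -1.11 (adjusted p = 0.00245), past both thresholds. The array on which ACACB was not well above background was luteolin+gefitinib replicate 2, at 21.4 units, so this difference rests partly on a signal near background.

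FASN, which makes palmitate, was at -1.54 and -1.41 at 0 h and -1.92 and -2.15 with DMSO. It was at -0.97 and -1.12 with luteolin, -0.88 and -1.64 with gefitinib, and -1.76 and -0.99 with both drugs. All 6 drug-treated arrays lay above both DMSO arrays, while the arrays within the gefitinib group, and within the group with both drugs, lay about as far from each other as their mean lay from DMSO. The difference from DMSO was 0.99 ± 0.31 with luteolin (adjusted p = 0.0455), 0.78 ± 0.31 with gefitinib (adjusted p = 0.0603) and 0.66 ± 0.31 with both drugs (adjusted p = 0.113), each below 2-fold. With slide as a block the gefitinib difference of FASN was 1.0015 (adjusted p = 0.0483), past both thresholds. Without gefitinib replicate 2 the gefitinib difference was 1.16 (adjusted p = 0.0221), and ACACA also passed, at 1.06 (adjusted p = 0.0174), so that 5 rather than 3 of the 9 genes rose.

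ELOVL6, the elongase that takes palmitate to stearate, moved the other way. It was at -1.51 and -1.36 at 0 h, -2.08 and -2.04 with DMSO, -2.54 and -2.63 with luteolin, -2.37 and -2.94 with gefitinib, and -2.73 and -3.52 with both drugs. All drug-treated arrays lay below the DMSO arrays, and the difference of -1.06 ± 0.28 with both drugs passed the test (adjusted p = 0.0182). It rested on each of 3 arrays: the adjusted p was 0.0779 without DMSO replicate 1, 0.0875 without DMSO replicate 2 and 0.083 without luteolin+gefitinib replicate 2, where the difference was -0.67. With normexp background correction the difference was -0.51.

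SCD, the desaturase that turns stearate into oleate, was at 0.65 and 0.50 at 0 h, 0.03 and 0.18 with DMSO, 1.03 and 0.94 with luteolin, 1.58 and 1.28 with gefitinib, and 1.06 and 1.59 with both drugs. All 6 drug-treated arrays were above the 4 control arrays. The rise over DMSO was 1.32 ± 0.21 with gefitinib (2.5-fold, adjusted p = 0.00184) and 1.22 ± 0.21 with both drugs (2.32-fold, adjusted p = 0.00406), and the luteolin difference of 0.88 (adjusted p = 0.0174) stayed under 2-fold. Without luteolin+gefitinib replicate 2 the difference with both drugs was 0.95 (adjusted p = 0.0154). The other two SCD probes gave differences of 1.11 and 1.04 with luteolin, 2.13 and 1.94 with gefitinib, and 1.95 and 1.86 with both drugs, each past both thresholds, and the 3 probes correlated with each other at r of at least 0.97 over the 10 arrays.

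FADS1 and FADS2, the delta-5 and delta-6 desaturases of polyunsaturated fatty acid synthesis, are neighbours on chromosome 11 and followed each other across the arrays. FADS1 was at 2.76 and 3.00 at 0 h, 2.40 and 2.72 with DMSO, 3.28 and 3.33 with luteolin, 3.72 and 3.98 with gefitinib, and 2.11 and 3.09 with both drugs. FADS2 was at 4.19 and 4.41 at 0 h, 4.0 and 4.14 with DMSO, 4.62 and 4.54 with luteolin, 5.34 and 5.20 with gefitinib, and 4.10 and 4.95 with both drugs. For either gene both gefitinib arrays were above the other 8, and luteolin+gefitinib replicate 1 was near DMSO while replicate 2 was higher. The rise with gefitinib was 1.29 ± 0.30 for FADS1 (2.45-fold, adjusted p = 0.00777) and 1.20 ± 0.26 for FADS2 (2.3-fold, adjusted p = 0.00603). With quantile normalization these differences were 0.79 and 0.51 (adjusted p = 0.0395 and 0.0419), under 2-fold, and without DMSO replicate 1 the FADS1 difference was 1.13 at an adjusted p of 0.0524. With luteolin the differences were 0.75 for FADS1 (adjusted p = 0.102) and 0.51 for FADS2 (adjusted p = 0.189), and with both drugs 0.04 and 0.45 (adjusted p = 0.918 and 0.189).

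Read by the treatments in the file names, the calls against DMSO change their drug. The rise of ACSS2 then belongs to gefitinib, the rises of SCD, FADS1 and FADS2 to the combination, and the rise of SCD with the fall of ELOVL6 to luteolin. Luteolin then gives 2 calls, gefitinib 1 and the combination 3.

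**Figure D2:**
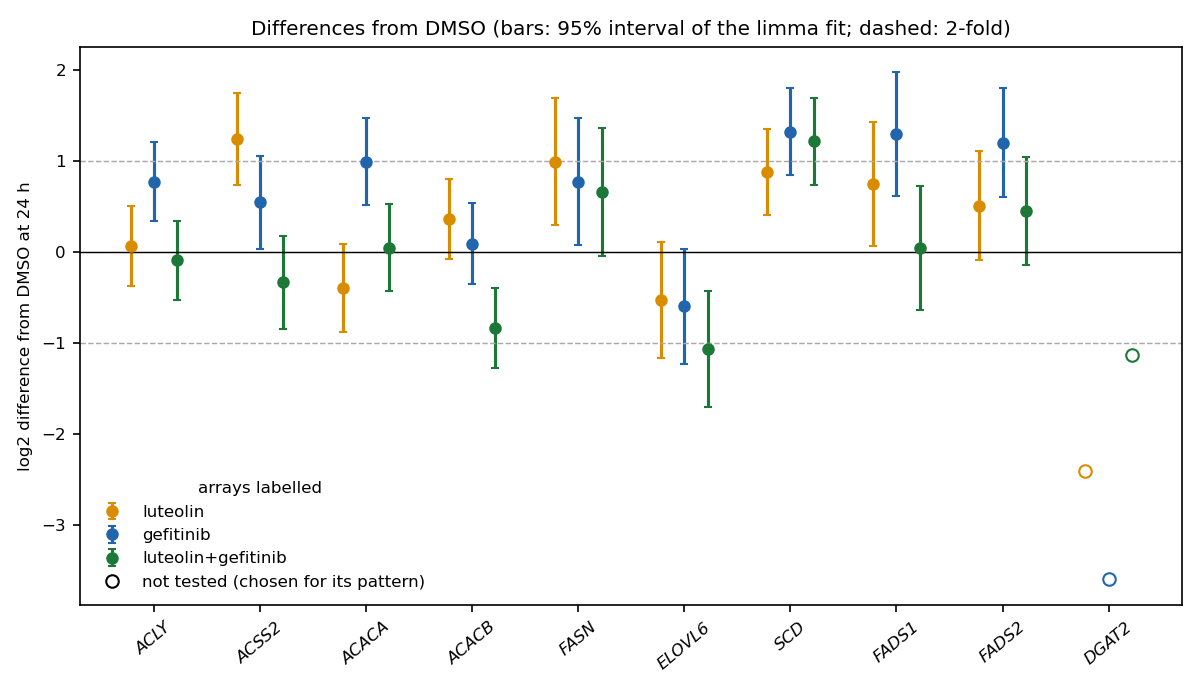
Log2 difference from the DMSO arrays at 24 h for each gene, in the 3 drug-treated groups as labelled. Filled points are limma estimates from 2 arrays in each group with their 95% intervals, open points are DGAT2, which was not tested, and dashed lines mark 2-fold. The gefitinib points of SCD, FADS1 and FADS2 lie above the upper dashed line, and ELOVL6 with both drugs lies below the lower one at -1.06.

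The promoters of the desaturase genes that rose together with gefitinib are shown from RefSeq, on GRCh38.p14, as 250 bases before and 50 bases after the annotated start. Entries matched 8 of the 10 genes with 14 promoters, and FASN and DGAT2 had none. Capitals mark CCAAT boxes (CCAAT) and GC boxes (GGGCGG) on either strand, so that a match on the opposite strand reads ATTGG or CCGCCC. SCD lies at chr10:100346983-100347282 on the plus strand, FADS1 at chr11:61816954-61817253 on the minus strand and the FADS2 entry shown at chr11:61816154-61816453 on the plus strand.
SCD: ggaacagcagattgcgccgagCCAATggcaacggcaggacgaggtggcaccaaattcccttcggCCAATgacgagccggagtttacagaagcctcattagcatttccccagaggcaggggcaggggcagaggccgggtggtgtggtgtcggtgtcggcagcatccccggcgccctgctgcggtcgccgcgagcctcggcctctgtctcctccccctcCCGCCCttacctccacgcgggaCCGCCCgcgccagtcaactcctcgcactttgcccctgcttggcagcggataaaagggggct
FADS1: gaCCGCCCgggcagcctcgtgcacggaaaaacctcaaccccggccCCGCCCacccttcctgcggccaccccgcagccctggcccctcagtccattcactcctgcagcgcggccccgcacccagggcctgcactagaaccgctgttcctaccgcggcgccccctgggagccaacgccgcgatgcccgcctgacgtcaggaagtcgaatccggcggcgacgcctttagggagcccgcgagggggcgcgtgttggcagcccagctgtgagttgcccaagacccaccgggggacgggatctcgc
FADS2: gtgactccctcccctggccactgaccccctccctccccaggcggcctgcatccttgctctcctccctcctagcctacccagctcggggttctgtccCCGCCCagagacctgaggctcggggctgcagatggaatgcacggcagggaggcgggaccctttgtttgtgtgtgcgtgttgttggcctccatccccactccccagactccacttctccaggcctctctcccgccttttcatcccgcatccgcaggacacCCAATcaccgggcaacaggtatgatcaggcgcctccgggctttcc
CCAAT boxes were found in 8 of the 14 promoters, of 6 genes, and GC boxes in 11, of 8 genes. Over all 35116 promoters of the table, 34.6% held a CCAAT box and 45.0% a GC box. SCD had CCAAT boxes at positions -229 and -186 from the start, and the FADS2 entry shown had one just after it, at position 6, while the FADS1 window held GC boxes only. The other FADS2 entry, at chr11:61815953-61816252, held neither box. The letters TCACNCCAC of a sterol regulatory element, CACGTG of a palindromic E-box and TGATGNAA of a CHOP-ATF composite element were in 0 of the 14 promoters, where 1.13%, 7.26% and 3.62% of all promoters held them. Both strands were searched, matches of different motifs did not overlap, and a match or its absence says only what letters are in this window.

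DGAT2 had lower means than DMSO with every treatment, and its differences with luteolin and with gefitinib were the largest among the 10 genes. It was at -0.60 and -0.89 at 0 h, -0.71 and -1.11 with DMSO, -2.15 and -4.47 with luteolin, -4.13 and -4.88 with gefitinib, and -1.52 and -2.55 with both drugs. All 6 drug-treated arrays lay below the 4 control arrays, and luteolin replicate 2 was far below replicate 1. The mean difference from DMSO was -2.40 with luteolin, -3.59 with gefitinib and -1.12 with both drugs, with a standard error of 0.67 each. With normexp background correction the DGAT2 difference with gefitinib was -2.12, and the luteolin difference was -3.56 without luteolin replicate 1 and -1.24 without luteolin replicate 2. Within the slides that hold both groups it was -3.36 and -1.44 with luteolin, -3.42 with gefitinib and -1.44 and -0.81 with both drugs. The second DGAT2 probe was at -1.70 and -2.18 with DMSO, -3.36 and -6.55 with luteolin, -4.94 and -5.61 with gefitinib, and -2.38 and -3.56 with both drugs. It was not well above background on luteolin replicate 2 or on either gefitinib array, so its level with gefitinib was at least 8.64-fold lower than with DMSO. For that bound each gefitinib array was given either its own signal or the lowest one that counts as well above background there, whichever was higher.

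The sum of the single changes of DGAT2 was -5.99, against -1.12 with both drugs, a departure of 4.87, and 0.142% of all genes had a larger one. These values chose the gene and are given only as such. From the DMSO mean of -0.91, a change as large as the sum would end below background on both luteolin+gefitinib arrays. The lowest signal that counted as well above background was 15.9 units on each of them. A combined change equal to the sum could therefore not have been measured there. The DGAT2 signals on these arrays were 302 and 92.3 units, above that limit. How much of the departure the limit accounts for was not tested. Without luteolin replicate 1 the departure was 6.03, without luteolin replicate 2 it was 3.71, and with normexp background correction it was 3.08. By the file names the sum of single changes was -3.52, the change with both drugs was -3.59 and the departure was -0.07.

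Among the 9 tested genes the departure from additivity ran the other way. It subtracts the added luteolin and gefitinib changes from the combined one, all against DMSO, and it was below 0 for 8 of the 9 genes. It passed the adjusted p for 6 of them, all negative, where 16.3% of all genes tested had a negative and 17.9% a positive departure past the threshold. ACSS2 would have stood 1.79 above DMSO by the sum and was 0.33 below it, a departure of -2.12 ± 0.31 (adjusted p = 0.0019). By its dimmer probe the sum was 1.66 and the measured change 0.37, above DMSO, a departure of -1.30 (adjusted p = 0.00487). The departure of FADS1 was -2.0 ± 0.42 (adjusted p = 0.00824), with a sum of 2.04 and a measured change of 0.04. FADS2 departed by -1.26 (adjusted p = 0.0303), ACACB by -1.29 (adjusted p = 0.00837), SCD by -0.99 (adjusted p = 0.0332) and ACLY by -0.93 (adjusted p = 0.0289). FASN departed by -1.11 (adjusted p = 0.0812), ACACA by -0.55 (adjusted p = 0.181) and ELOVL6 by 0.06 (adjusted p = 0.921). The median departure was -1.11 for the 9 genes and -0.16 for all genes, and all these departures share the DMSO arrays. Other lists had such departures too. Of 22 cholesterol synthesis and uptake genes, 15 (68.2%) passed with a negative departure and 1 with a positive one, with a median of -1.06. By the file names these counts were 7 and 3. Of 18 lipid droplet and lipolysis genes, 7 were negative and 3 positive past the threshold. The counts were 5 and 0 of 14 other elongation, desaturation and activation genes, and 1 and 3 of 19 fatty acid oxidation genes. With normexp background correction ACACB and ACLY no longer passed, at -0.66 and -0.78 (adjusted p = 0.0773 and 0.0669), and FASN did, at -0.998 (adjusted p = 0.0426). With slide as a block the SCD departure was -1.05 (adjusted p = 0.0594).

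These departures depended on which arrays hold which treatment. By the file names 2 of the 9 genes passed, ACLY at 0.80 (adjusted p = 0.0411) and ACACA at 1.34 (adjusted p = 0.00711), both positive, and ACSS2 and SCD stood at -0.36 and -0.77 (adjusted p = 0.386 and 0.063). The count was 3 without DMSO replicate 1, without DMSO replicate 2, without luteolin replicate 1, without luteolin replicate 2 and without gefitinib replicate 1, and 7 without luteolin+gefitinib replicate 2, where FASN also passed at -1.49 (adjusted p = 0.0251).

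**Figure D3:**
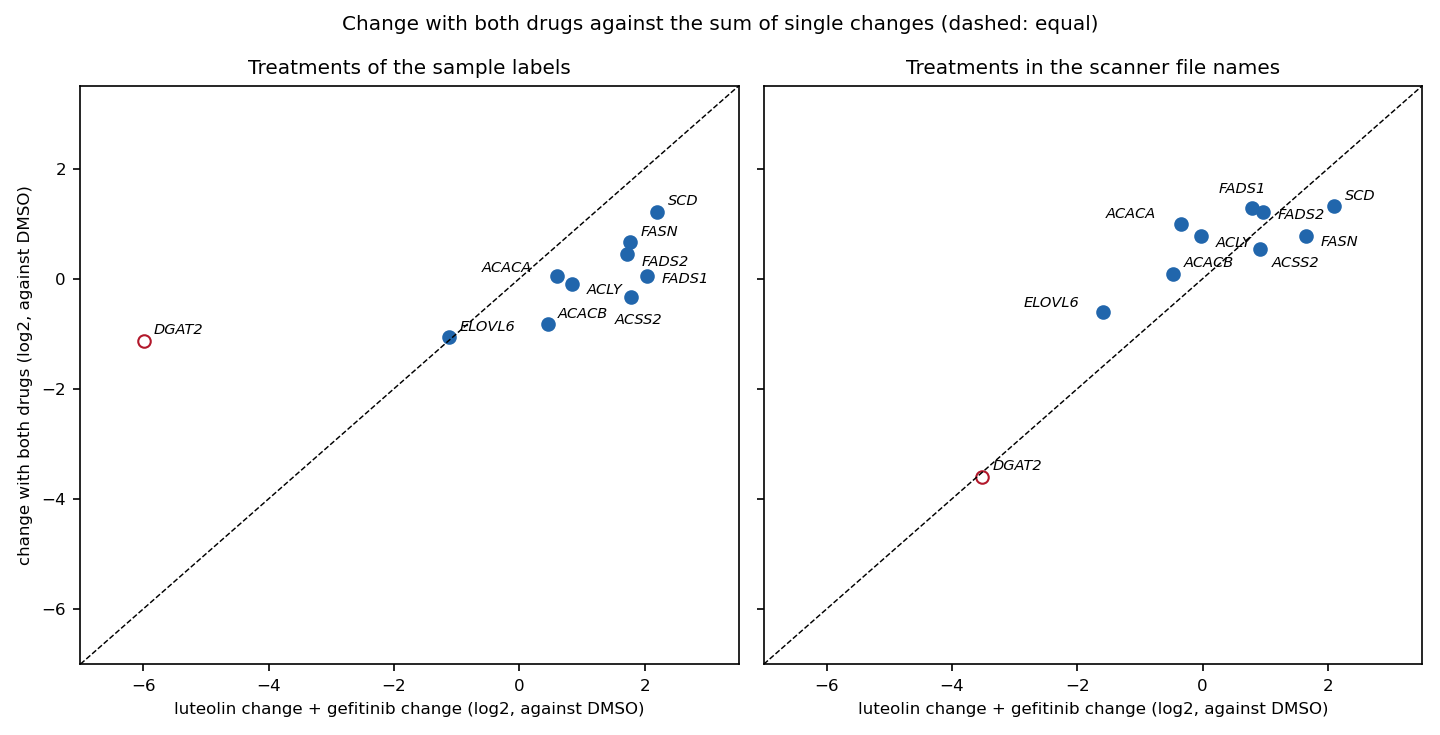
Change with both drugs against the sum of the luteolin and gefitinib changes, as log2 differences of mean levels from DMSO, for the 10 genes. The left panel uses the treatments of the sample labels and the right panel those in the scanner file names; the dashed line marks equal values, and the open point is DGAT2. By the labels DGAT2 is at -5.99 and -1.12, far above the line, and by the file names it is at -3.52 and -3.59, on the line.

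Compared with each other, the drug-treated groups differed for few of the genes. ACACA was lower with luteolin than with gefitinib, by -1.39 ± 0.21 on the log2 scale (adjusted p = 0.000892), the only one of 9 past both thresholds, where 18.5% of all genes tested fell. Its other probe gave -0.29 (adjusted p = 0.246), and as the median of its probes the ACACA difference was -0.84. As the median of its probes SCD passed both thresholds, at -1.02 (adjusted p = 0.00253). ACLY, ACSS2 and FADS2 passed the p threshold below 2-fold, at -0.705, 0.69 and -0.69 (adjusted p = 0.0124, 0.0259 and 0.0472). The dimmer ACSS2 probe had the opposite sign, at -0.58 (adjusted p = 0.0184), so the direction for ACSS2 depended on the probe. With both drugs, ACSS2 and ACACB fell against luteolin, with differences of -1.57 and -1.19 (adjusted p = 0.00158 and 0.00264), 2 of 9 where 9.76% of all genes fell. The ACACB difference was -0.07 (adjusted p = 0.766) with normexp background correction and that of ACSS2 was -0.87 as the median of its probes. By its dimmer probe ACSS2 did not fall against luteolin, at -0.18 (adjusted p = 0.427). Against gefitinib, all 9 genes had lower means with both drugs, with a median of -0.86 where that of all genes was -0.13, and FADS1 fell, by 1.25 ± 0.30 (adjusted p = 0.00954). This was 1 of 9 genes, where 9.76% of all genes fell. Another 5 of the 9 passed the p threshold below 2-fold. The count of falls was 0 without luteolin+gefitinib replicate 1, where FADS1 was at -0.76, 3 without gefitinib replicate 2 and 6 without luteolin+gefitinib replicate 2. By the file names these are other pairs of drugs: the fall of ACACA becomes a rise of the combination over gefitinib, and the falls of ACSS2 and ACACB become falls of luteolin against gefitinib, while FADS1 becomes lower with luteolin than with the combination.

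Against 0 h, the comparison that the study's design names, the picture was narrower. DMSO alone left 0 of 9 genes past the thresholds, where 7 of all genes tested, 0.0355%, passed and 1217 had an unadjusted p under 0.05. The DMSO mean was below the 0 h mean for 8 of the 9 genes, from -0.22 for ACLY to -0.62 for ELOVL6, with a median of -0.32 against -0.02 for all genes, and the 2 groups did not overlap for any of the 9, where 49.1% of all genes did not overlap. ELOVL6 fell with each drug treatment, with differences of -1.14 with luteolin (adjusted p = 0.0166), -1.22 with gefitinib (adjusted p = 0.00737) and -1.68 with both drugs (adjusted p = 0.00346). It was 1 of 9 genes in each comparison, where 7.85%, 14.5% and 8.32% of all genes fell. The luteolin call was lost without either 0 h array or either luteolin array, at adjusted p-values from 0.0559 to 0.0921, and without gefitinib replicate 2 the gefitinib difference was -0.93. SCD, FADS1 and FADS2 were 0.85, 0.97 and 0.97 above 0 h with gefitinib (adjusted p = 0.00985, 0.0248 and 0.0144), each below 2-fold. The other two SCD probes passed both thresholds against 0 h, at 1.32 and 1.37 with gefitinib (adjusted p = 0.00138 and 0.00366) and at 1.14 and 1.29 with both drugs (adjusted p = 0.00387 and 0.00742). The dimmer ACSS2 probe passed both with gefitinib, at 1.27 (adjusted p = 0.000943). With luteolin ACSS2, ACACB and ACACA differed from 0 h by 0.97, 0.62 and -0.89 (adjusted p = 0.0132, 0.0413 and 0.0146), each below 2-fold. The other ACACA probe gave -0.06 (adjusted p = 0.864). With quantile normalization the ACSS2 difference was 1.06 (adjusted p = 0.00813), past both thresholds. With slide as a block FADS1 and FADS2 also passed with gefitinib, at 1.20 and 1.11 (adjusted p = 0.0102 and 0.0144). FASN was 0.43, 0.21 and 0.10 above it with luteolin, gefitinib and both drugs (adjusted p = 0.329, 0.582 and 0.818).

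Across the 10 arrays the 9 tested genes did not move as 1 block. Of their 36 pairs, 8 correlated above r = 0.7 and 8 below 0, with a median of 0.42. FADS1 and FADS2 had the highest value, 0.90, followed by SCD with FADS2 at 0.83 and ACLY with ACACA at 0.81. The points share groups, slides and scaling, so these are descriptions. Among 16263 genes well above background on all arrays, the genes closest to FASN were H1-4, a linker histone, at r = 0.93 and HS6ST3, a heparan sulfate sulfotransferase, at 0.91. Those closest to DGAT2 with a gene symbol were SKP2, an F-box protein of a ubiquitin ligase, at 0.97 and NNT, the mitochondrial transhydrogenase, at 0.97.

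Of 13 tested regulators of the pathway, 2 rose with luteolin (15.4%, beside 7.22% of all genes), 2 rose and 2 fell with gefitinib (15.4% each, beside 15.6% and 14.3%), and 4 rose with both drugs (30.8%, beside 12.1%). Under normexp background correction 1 rose with luteolin and 2 with both drugs, and 3 rose and 1 fell with gefitinib. SREBF2, the transcription factor of cholesterol synthesis genes, rose by 1.05 with luteolin, 1.30 with gefitinib and 1.08 with both drugs (adjusted p = 0.0115, 0.00256 and 0.00808), and its luteolin difference was 0.96 with normexp background correction. SREBF1, the transcription factor best known for fatty acid synthesis genes, rose by 1.17 with both drugs (adjusted p = 0.00242). INSIG1, which holds these factors in the endoplasmic reticulum, rose by 2.15 with luteolin (adjusted p = 0.0145). INSIG2, its paralogue, fell with gefitinib, at -1.03 (adjusted p = 0.00893), and rose by 1.31 with both drugs (adjusted p = 0.00569). MLXIPL, a glucose-responsive transcription factor, rose by 1.62 with gefitinib (adjusted p = 0.00043), and MID1IP1, an activator of acetyl-CoA carboxylase, fell by 1.28 (adjusted p = 0.00528). The median log2 difference of the list was 0.46, 0.19 and 0.15 with luteolin, gefitinib and both drugs, beside 0.08, 0.22 and 0.16 for all genes. By the file names these values, and those of the lists that follow, belong to gefitinib, the combination and luteolin in that order.

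The enzymes around the 10 genes were described by the same counts, beside shares of all genes that rose of 7.22% with luteolin, 15.6% with gefitinib and 12.1% with both drugs. Of 6 genes of citrate and NADPH supply, ME1 and IDH1, which both make NADPH, rose with luteolin, by 1.03 and 1.21 (adjusted p = 0.00337 and 0.00421), 33.3% of the list, and 0 of 6 passed with gefitinib or with both drugs. Of 14 other elongation, desaturation and activation genes, 0 passed with luteolin, ELOVL7 rose by 1.90 with gefitinib (adjusted p = 0.00859), 7.14% of the list, and 0 passed with both drugs. Of 17 other glycerolipid synthesis genes, 3 rose and 1 fell with luteolin, 4 rose and 1 fell with gefitinib, and 2 rose and 2 fell with both drugs. The shares that rose were 17.6%, 23.5% and 11.8%, and those that fell were 5.88%, 5.88% and 11.8%, beside 6.17%, 14.3% and 7.7% of all genes. Under normexp 2 of the 17 rose with luteolin and 1 with both drugs. AGPAT5, a lysophosphatidic acid acyltransferase, rose by 2.43 with both drugs (adjusted p = 0.00134). LPIN1, a phosphatidate phosphatase upstream of DGAT2, rose by 1.08 with luteolin (adjusted p = 0.00559). PLPP3, a lipid phosphate phosphatase, fell in all 3 groups, with differences of -1.46, -1.21 and -2.23 (adjusted p = 0.00886, 0.00919 and 0.00165).

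**Figure D4:**
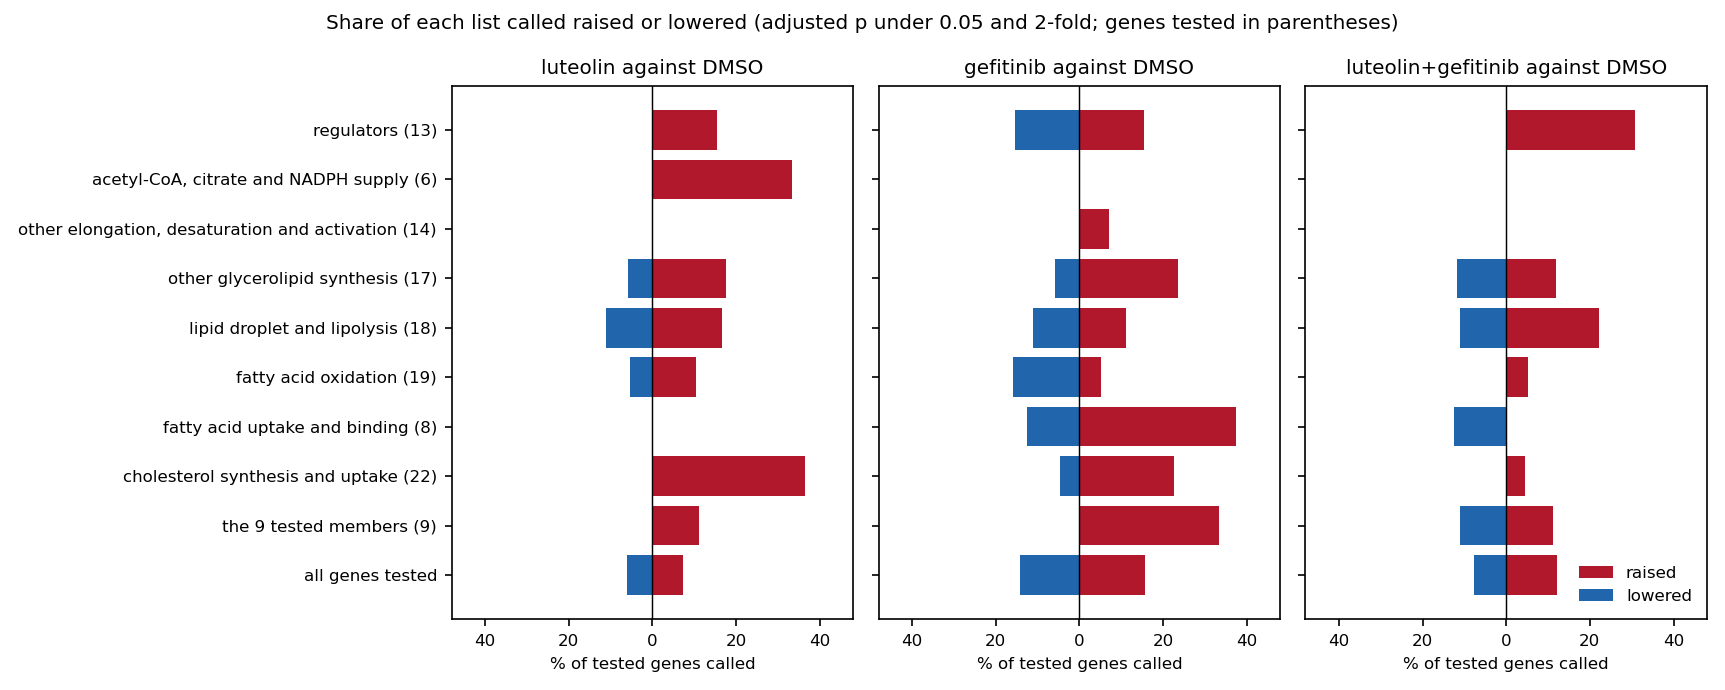
Share of the tested genes of each list that rose (right) or fell (left) against DMSO, in percent, for the 3 drug-treated groups as labelled. The number of genes tested is in parentheses, and the bottom bars give all genes. With gefitinib 3 of the 9 members rose, where 15.6% of all genes did, and none of the members fell.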

How the data were processed

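The deposited files come from Agilent Feature Extraction (the headers give 10.7.3.1) and hold 10 single-colour arrays. As deposited by the authors, the intensity values are linear, with background and spatial trend subtracted within the array, and were not normalized across arrays. A deposited value table repeats that intensity. Control spots and outlier spots were left out, the spots of a probe were averaged as log2 signals, and each array was scaled to its 75th percentile. Depth is set by signal over background and by the 2 arrays per group. Of 41000 probes, 28776 passed the filter (well above background on each array of at least 1 group), and 22 of these without a usable spot on some array were left out. The 28754 probes kept stand for 19704 named genes, of which 5655 have several probes. Accessions of 23958 probes were named through the RefSeq table given with the data, and other names are those of the scanner files.

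A limma model (3.58.1, R 4.3.3) used all 10 arrays and 5 groups (residual degrees of freedom 5, prior 3.36), and p-values were adjusted by Benjamini-Hochberg over all probes kept. Intervals are 95% intervals of that fit. The script was tested on simulated data. The members and the gene lists were chosen with earlier results of these data known. Named genes are the members, genes of each list with the largest called differences from DMSO (up to 2 per direction and group, shifted alike on each array of the group and clearly over background in both groups), and the genes with the highest r to FASN and DGAT2. Alternatives were quantile normalization, normexp background correction (offset 50), the deposited value table, keeping dim probes, keeping only probes above background on every array, replicate number or slide as a block, the treatments of the file names, only the groups compared, no minimum fold, the median of a gene's probes, the methods' t-test of log2 ratios, and dropping every array once, which takes the remaining array of its group to vary as other groups do. For the lists, normexp and quantile scaling were added after the data were seen. Coordinates of probes are those of the files, on hg18, and no annotation of that build was used here. The version of Feature Extraction that the methods give differs from that of the headers. Promoters were searched with Python 3.11.15.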

Additional observations from a re-analysis of the deposited data

Results flagged for a closer look

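The test of the departure from additivity is also a test of whether the luteolin effect differed with and without gefitinib, and 6 of the 9 tested genes passed it, by limma with Benjamini-Hochberg adjustment over all probes and 2 arrays in each group. The luteolin effect on the log2 scale was lower with gefitinib than without it by -2.12 for ACSS2, -2.0 for FADS1, -1.29 for ACACB, -1.26 for FADS2, -0.99 for SCD and -0.93 for ACLY. With the treatments of the file names none of these 6 passed in the same direction, and the values were -0.36, 0.50, 0.56, 0.24, -0.77 and 0.80 in the same order. Within the slide that holds all 4 groups the departures of ACSS2, FADS1, FADS2, SCD and ACLY were -2.52, -2.49, -1.87, -1.52 and -1.33, from 1 array in each group.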

How the results depend on the processing

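Counts are of the 9 tested genes, or of 8, without ACACB, where only probes above background on all arrays were kept. With normexp background correction they were 1 for luteolin+gefitinib against DMSO, 0 for luteolin and 0 for gefitinib against 0 h, and 1 for luteolin+gefitinib against luteolin. Quantile normalization gave 2 for luteolin against 0 h and 2 for luteolin+gefitinib against gefitinib. Only probes above background on all arrays gave 1 for luteolin+gefitinib against luteolin, and no filter on dim probes gave 3 departures from additivity. The median over probes gave 2 for gefitinib and 2 for luteolin+gefitinib against 0 h, and 1 for luteolin+gefitinib against luteolin. With slide as a block, gefitinib against 0 h gave 3. With no minimum fold, the counts against DMSO were 3 for luteolin and 5 for gefitinib, those against 0 h were 4 for luteolin, 5 for gefitinib and 3 for luteolin+gefitinib, and there were 4 for luteolin against gefitinib and 6 for luteolin+gefitinib against gefitinib. The treatments of the file names gave 2 for luteolin against DMSO, 1 for gefitinib against DMSO, 2 for luteolin against gefitinib, 1 for luteolin+gefitinib against luteolin and 2 departures. The methods' t-test at an unadjusted threshold gave 6 for luteolin and 0 for luteolin+gefitinib against DMSO, 1, 4 and 0 for DMSO, luteolin and luteolin+gefitinib against 0 h, 4 for luteolin against gefitinib, 1 for luteolin+gefitinib against luteolin and 0 against gefitinib. After Benjamini-Hochberg it gave 0 in each of these comparisons and for gefitinib against DMSO and against 0 h. The cause of these differences was not tested, apart from fewer genes or another threshold where the alternative itself sets them.

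Leaving out 1 array at a time gave 0 to 1 for luteolin, 3 to 5 for gefitinib and 0 to 3 for luteolin+gefitinib against DMSO, 0 to 1 for luteolin, 1 to 2 for gefitinib and 1 to 2 for luteolin+gefitinib against 0 h, 0 to 6 for luteolin+gefitinib against gefitinib, 2 to 3 against luteolin, and 3 to 7 for the departure. The replicate block changed no count by over 1.5 times and left 6 departures. Deviations of same-numbered arrays from their group means correlated at r from -0.09 to 0.29, so the numbers were not taken to pair the arrays.

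The treatments of the file names reversed ACSS2 for luteolin against DMSO (-0.33). They reversed ACSS2 (-1.57), ACACA (0.44) and ACACB (-1.19) for luteolin against gefitinib, and ACSS2 (0.88), ACACB (0.92), FADS1 (1.25) and DGAT2 (-2.47) for luteolin+gefitinib against luteolin. Against gefitinib they reversed ACACA (1.39), FADS1 (0.55) and DGAT2 (-1.19), and for the departure ACLY (0.80), ACACA (1.34), ACACB (0.56), FADS1 (0.50), FADS2 (0.24) and DGAT2 (-0.070). No other setting turned the sign of a difference that was called before or after, or of a DGAT2 difference of at least 2-fold. Differences not called did change sign when single arrays were left out, from -0.34 to 0.45 for the ELOVL6 departure and from -0.44 to 0.53 for FADS1 with both drugs against DMSO, for example. The median difference of all genes with gefitinib was 0.37 with normexp and 0.05 with quantile normalization, in place of 0.22. Signal over background limits ACACB, which was well above it on 9 arrays, and the dimmer DGAT2 probe, on 7. The brighter DGAT2 probe was well above it on all 10 arrays but came near it with gefitinib. It read 37.2 and 21.3 units there, where the lowest signals counted as well above background were 21.6 and 17.2.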

Other observations

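Genes that store and burn fat were measured on the same arrays, where 7.22%, 15.6% and 12.1% of all genes rose against DMSO with luteolin, gefitinib and both drugs, and 6.17%, 14.3% and 7.7% fell. Of 18 lipid droplet and lipolysis genes, 3 rose and 2 fell with luteolin, 2 rose and 2 fell with gefitinib, and 4 rose and 2 fell with both drugs, by the labels. The shares that rose were 16.7%, 11.1% and 22.2%, and 11.1% fell in each comparison. With normexp background correction 0 rose with luteolin, and 3 rose and 0 fell with both drugs. PNPLA2, the first lipase of triglyceride breakdown, rose by 1.45 with gefitinib and 1.13 with both drugs (adjusted p = 0.00108 and 0.00471 from limma). G0S2, an inhibitor of that lipase, fell by 2.32 with luteolin (adjusted p = 0.0014), and HILPDA, another inhibitor of it, fell by 1.93 with gefitinib (adjusted p = 0.00116). LIPE and PNPLA3, of the same list, fell with both drugs, with differences of -1.39 and -1.74. With normexp background correction these were -0.71 and -0.78, under 2-fold. PLIN2, a coat protein of lipid droplets, rose by 1.40 with both drugs (adjusted p = 0.00778). FITM2, a protein of lipid droplet formation, fell by 1.41 with luteolin (adjusted p = 0.00919).

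Of 19 fatty acid oxidation genes, 2 rose and 1 fell with luteolin, 1 rose and 3 fell with gefitinib, and 1 rose and 0 fell with both drugs, while 1 rather than 3 fell with gefitinib under normexp. With gefitinib 5.26% of the list rose and 15.8% fell, and with both drugs 5.26% rose. CPT2, which moves acyl groups from carnitine to CoA inside mitochondria, fell by 2.65 with gefitinib (adjusted p = 0.000514). ACADVL rose by 1.30 with gefitinib, a difference that was 0.62 with quantile normalization, and HADH fell with luteolin, at -1.64. PDK4, a kinase that holds back pyruvate dehydrogenase, rose by 2.45 with luteolin and 1.77 with both drugs (adjusted p = 0.00242 and 0.0072). PPARA, a transcription factor of oxidation genes, rose by 2.55 with luteolin and fell by 2.0 with gefitinib (adjusted p = 0.00119 and 0.00153), and with normexp background correction the gefitinib difference was -0.59. Of 8 uptake and binding genes, 0 passed with luteolin, 3 rose and 1 fell with gefitinib, and 0 rose and 1 fell with both drugs, while 2 rose and 0 fell with gefitinib under normexp, where 0 fell with both drugs, and 1 rose with gefitinib under quantile normalization. With gefitinib 37.5% of the list rose and 12.5% fell, beside 15.6% and 14.3% of all genes. SLC27A1, a fatty acid transporter, rose by 1.53 with gefitinib (adjusted p = 0.000659). SLC27A3 fell with gefitinib, at -1.40, and SLC27A4 fell with both drugs, at -1.15. Of 22 cholesterol genes, 8 rose and 0 fell with luteolin, 5 rose and 1 fell with gefitinib and 1 rose with both drugs. The shares that rose were 36.4%, 22.7% and 4.55%, beside 7.22%, 15.6% and 12.1% of all genes. The medians were 0.78, 0.74 and 0.33, beside 0.08, 0.22 and 0.16 for all genes, and with quantile normalization 2 rose with gefitinib.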
